A study of Homo sapiens with 6 samples.

Results

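The Krüppel-like factors (KLF) and early growth response factors (EGR) are transcription factors that bind GC-rich DNA through C2H2 zinc fingers. The 10 genes described here are KLF2, KLF4, KLF5, KLF6, KLF7, KLF9, KLF10, KLF11, EGR1 and EGR3, chosen by symbol from the 60616 gene identifiers of the gene tables, and all 10 were found. Their mRNA was measured by sequencing in 12Z cells, an immortalized human endometriotic cell line labelled wild type. The treated group received frankincense extract, a resin preparation, at 70 ug/mL in DMSO for 12 h, and the vehicle group received DMSO. Both groups had 3 libraries and the same medium with 10% charcoal-stripped serum. All libraries came from 1 cell line, and the labels do not state that replicates were separate cultures, so the p-values measure the spread between these libraries, which may be technical.

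EGR genes are immediate early genes: serum response factor with its ETS-domain partners switches EGR1 on within minutes of a growth factor or stress signal that passes through the ERK kinases, and the NAB proteins bind EGR proteins and repress their targets. KLF proteins bind GC boxes and CACCC boxes, and individual members activate or repress, depending on the cofactors that they recruit. KLF9 is a partner of the progesterone receptor in endometrium, KLF4 and KLF5 are known from epithelia, KLF2 from endothelium under flow, and KLF10 and KLF11 were first described as early targets of TGF-beta.

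EGR1, KLF11 and KLF2 had the largest changes among the 9 members that passed the count filter, so their upstream sequences are shown. Each is the 250 bases before a transcription start in the RefSeq promoter table (GRCh38.p14), on the plus strand. KLF11 has more than 1 window, and the one with the marked motif is shown, before a start inside the annotated gene. Capitals mark the CArG boxes, the core of the serum response element, in EGR1 (chr5:138465229-138465478), the cyclic AMP response element TGACGTCA in KLF11 (chr2:10043971-10044220), and the GC boxes, GGGCGG on either strand, in KLF2 (chr19:16324576-16324825).
EGR1: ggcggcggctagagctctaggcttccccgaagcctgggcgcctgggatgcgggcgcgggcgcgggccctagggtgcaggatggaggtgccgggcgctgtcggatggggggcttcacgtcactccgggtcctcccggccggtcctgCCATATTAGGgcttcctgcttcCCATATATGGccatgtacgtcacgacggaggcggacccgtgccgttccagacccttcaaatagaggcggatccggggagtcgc
KLF11: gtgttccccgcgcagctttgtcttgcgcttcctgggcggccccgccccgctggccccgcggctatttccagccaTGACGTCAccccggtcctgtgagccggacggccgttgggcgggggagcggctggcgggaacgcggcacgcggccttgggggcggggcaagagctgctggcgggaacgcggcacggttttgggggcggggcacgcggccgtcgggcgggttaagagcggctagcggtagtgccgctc
KLF2: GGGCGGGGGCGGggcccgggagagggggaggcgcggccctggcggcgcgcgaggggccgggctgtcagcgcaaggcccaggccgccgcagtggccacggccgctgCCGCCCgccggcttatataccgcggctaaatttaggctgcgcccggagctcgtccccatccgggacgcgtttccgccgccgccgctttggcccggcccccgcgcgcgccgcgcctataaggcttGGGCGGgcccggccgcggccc
The EGR1 window held 2 CArG boxes, at positions -105 to -96 and -83 to -74 from the start, and no GC box. CArG boxes were found in 1.16% of the 35116 windows of the table. Among the other immediate early genes listed below, 14 had a window, and 0 of these held a CArG box there. A single cyclic AMP response element lay at -176 to -169 in KLF11, where it overlapped a CACCC box, and 1.65% of all windows held one. In KLF2 there were 4 GC boxes, a motif present in 42.6% of all windows. The same KLF11 window held 6 GC boxes.

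Both strands of 13 windows were searched, for 8 of the members. KLF10 and EGR3, both on chromosome 8, were left out of the search. Of the 8 genes, 6 had a GC box (46.2% of the 27305 genes in the table), 4 had a CACCC box (58.3% of genes), 4 had an E-box, CACGTG (7.73% of genes), and 4 had a CCAAT box (37.0% of genes), each counted once over all windows of a gene. Besides EGR1, the only one of the 8 genes with a CArG box was KLF7, in 1 of its windows, at -62 to -53. The AP-1 site TGACTCA, which 5.19% of genes held, and the EGR site GCGTGGGCG, which 0.886% held, had no match in the 8 genes. Base composition varied among them, with 80% G or C in the KLF2 window and 32.4% in that of KLF9, against a median of 58% over all windows. The letters were matched exactly and describe only these windows.

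After treatment the members did not move as a block. EGR1, KLF2, KLF10, KLF7 and KLF9 fell and KLF11, KLF6 and KLF5 rose on the count scale, while KLF4 did not pass the test; on the TPM scale the means of KLF7 and KLF9 were higher in treated cells. That is 8 of the 9 members tested, 3 higher and 5 lower, with an adjusted p under 0.05 as the call (quasi-likelihood test in edgeR on counts, Benjamini-Hochberg over 16719 genes). In that comparison 62.9% of all tested genes were called, 31.9% higher and 31.0% lower, so calls among the members are set against calls in most of the transcriptome. The median log2 fold change of the 9 members was -0.22, against -0.0016 for all tested genes, and the median absolute log2 change was 0.28 for the members and 0.37 for all tested genes. EGR1 alone was called with a change of at least 2-fold, as were 12.2% of all tested genes. All 9 tested members had groups that were apart in normalised CPM, as did 67.5% of all tested genes. In TPM, a scale that also divides by gene length, 6 of the 9 were apart (65.2% of all tested genes), 5 of them higher after treatment (48.1%). EGR3 was too low to be tested. Because the RNA came from bulk cultures, a change in the share of cells that carry an mRNA and a change in its amount per cell cannot be told apart.

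Depth was 23443295 to 25169710 expected counts in frankincense libraries and 22615150 to 27615196 in vehicle libraries, and 3 counts in a library were worth 0.109 to 0.133 CPM (counts scaled to a common depth), which reflects counting error alone. Frankincense replicate 3 stood apart from the other 2 treated libraries, at -27.6 on the second principal component (7.99% of the variance), against 7.99 and 19.95. The mitochondrial genome gave 9.50% to 11.01% of expected counts in frankincense libraries and 14.01% to 14.7% in vehicle libraries. Counts and TPM gave different centres: higher genes made up 50.7% of the calls by counts, 74.8% by limma on log2(TPM + 1), and 57.7% by the same test on TPM rescaled without the mitochondrial genome. All tested genes had a median log2 change of 0.20 by the second of these and 0.05 by the third, and the changes below are on the count scale unless a sentence says TPM. Of 6 epithelial markers, 5 were tested, 2 called higher and 3 lower. The simple epithelial keratins KRT8, KRT18 and KRT19 averaged 684, 582 and 118 TPM in treated cells, against 772, 661 and 149.9 TPM in vehicle cells, and were lower. KRT7 averaged 13.2 TPM in treated and 5.84 TPM in vehicle cells, EPCAM averaged 1.97 and 1.12 TPM, and both were higher. The 6 genes summed to 1361 to 1419 TPM in treated and 1574 to 1605 TPM in vehicle libraries. Of 4 mesenchymal markers, CDH2 was called higher, at 84.3 TPM in treated and 57.4 TPM in vehicle cells, VIM was called lower by counts, at 1969 and 2048 TPM, and FN1 and ZEB1 were not called. Their sum was 2429 to 2545 TPM in treated and 2415 to 2537 TPM in vehicle libraries. CDH1, the epithelial cadherin, was at or below 0.23 TPM in every library. All 4 endothelial genes and 3 of 4 immune genes were under 0.5 TPM in both groups, and the summed endothelial level was 0.04 to 0.25 TPM in treated and 0.10 to 0.27 TPM in vehicle cells. CD68, the fourth immune gene and also a lysosomal protein of other cells, averaged 46.2 ± 15.4 and 29.2 ± 1.41 TPM. The steroid receptors ESR1, ESR2 and PGR were each under 0.5 TPM on average, so the receptor with which KLF9 works in endometrium was at a very low mRNA level here. Without frankincense replicate 3 the members again gave 3 called higher and 5 lower, and so did the count test without the genes of the mitochondrial genome. On TPM rescaled without those genes, 2 members were called higher and 3 lower, beside 5167 and 3784 of 16704 tested genes. The part of the marker differences in the members' changes was not tested.

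**Figure D1:**
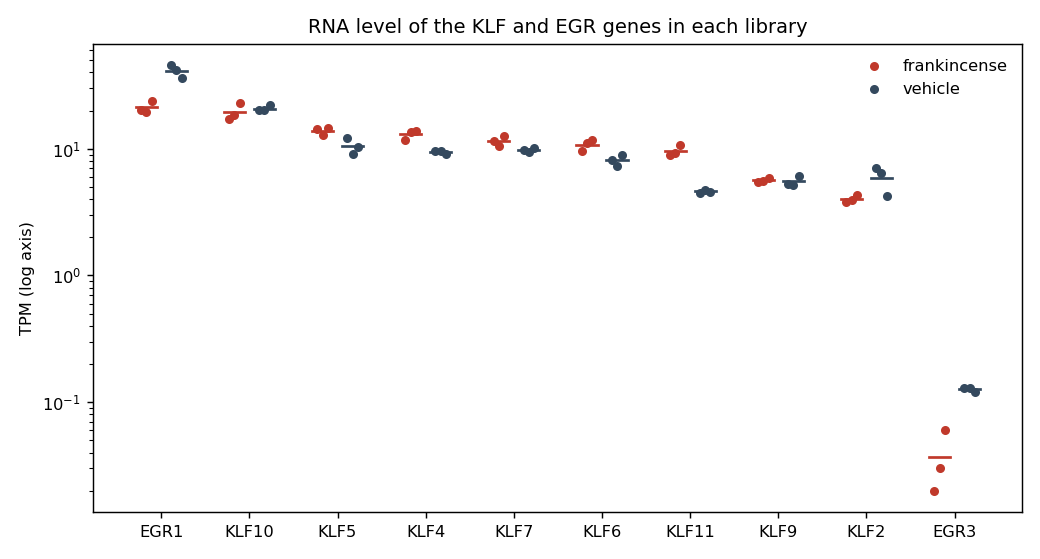
Transcript level (TPM, log axis) of the 10 members in each library, genes ordered by their mean in frankincense-treated cells; points are libraries, frankincense left of vehicle within a gene. EGR1 is lower and KLF11 higher in all 3 treated libraries than in any vehicle library, and EGR3 sits far below the rest.

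EGR1 encodes the zinc finger factor that links acute ERK signals to growth, repair and stress genes. EGR1 (ENSG00000120738, GRCh38 chromosome 5, 138465490 to 138469315) had 20.3, 19.6 and 23.9 TPM in frankincense libraries, against 45.6, 41.95 and 36.3 TPM in vehicle libraries. The groups were apart, and frankincense replicate 3 was the highest of the treated libraries. Behind these levels lay 1134, 1017 and 1154 expected counts in treated and 2503, 2856 and 2286 in vehicle libraries. The log2 fold change was -1.20 ± 0.0824 (SE), a 2.30-fold lower level, with an adjusted p of 1.05e-07 by edgeR. EGR1 was the most abundant member in both groups, and its annotation has 1 transcript, with an effective length of 2961 to 2963 bases in treated and 2964 bases in vehicle libraries.

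EGR3 is a second immediate early member of the family, required for muscle spindle development in mice. It lies on GRCh38 chromosome 8, 22687659 to 22693302 (ENSG00000179388), and had 0.02, 0.03 and 0.06 TPM in frankincense libraries, against 0.13, 0.13 and 0.12 TPM in vehicle libraries. These are 2, 2 and 4 counts in treated and 9, 13 and 8 in vehicle libraries, below the count filter. Over the groups, 8 counts against 30 gave a depth-scaled ratio of 0.283, with an exact interval of 0.112 to 0.633 that covers counting error only. Without the filter edgeR gave a log2 fold change of -1.83 ± 0.634 (SE) with an adjusted p of 0.0122. EGR3 passed the filter when frankincense replicate 2 was left out, at -1.69 (adjusted p 0.0266), and when frankincense replicate 3 was left out, at -2.24 (adjusted p 0.00576, edgeR). In both fits it passed only through the vehicle libraries, where it is higher, so these p-values are no further support for a fall. A gene annotated across it, ENSG00000253125, had a mean of 1.33 counts in treated and 1 count in vehicle libraries.

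KLF2, a factor of quiescent endothelium and T cells, was the KLF member that fell furthest on the count scale. KLF2 (ENSG00000127528, chromosome 19, 16324817 to 16327874) had 4.70, 4.42 and 3.73 normalised CPM in frankincense libraries, against 6.55, 6.50 and 5.35 in vehicle libraries. The groups did not overlap on this scale, and the log2 fold change was -0.52 ± 0.136 (SE; adjusted p 0.00418, edgeR). In TPM the same libraries had 3.77, 3.91 and 4.33 for frankincense and 7.05, 6.38 and 4.24 for vehicle, so frankincense replicate 3 was above vehicle replicate 3 and the groups overlapped. The effective length over which its reads were spread was 1692, 1549 and 1287 bases in frankincense libraries, against 1112, 1188 and 1519 bases in vehicle libraries. Libraries with a longer effective length had a lower TPM across all 6. GENCODE 29 lists 2 KLF2 transcripts, of 2018 and 564 bases. With the effective length taken into the count model, the log2 fold change was -0.80 (adjusted p 0.0031, edgeR).

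KLF4, a factor of epithelial barrier differentiation and of induced pluripotency, was higher in treated cells by TPM and not called by the reported count test. KLF4 (ENSG00000136826, chromosome 9, 107484852 to 107490482) had 11.7, 13.5 and 13.7 TPM in frankincense libraries, against 9.55, 9.65 and 9.07 TPM in vehicle libraries. Those groups were apart, with treated replicate 1 nearest to the vehicle libraries. In normalised CPM the treated libraries had 18.99, 21.2 and 20.96 and the vehicle libraries 18.4, 18.8 and 16.9, also apart. The count test gave a log2 fold change of 0.17 ± 0.0762 (SE) with an adjusted p of 0.0582 (edgeR), and 0.42 with an adjusted p of 0.00273 was obtained by limma on log2(TPM + 1). Without treated replicate 1 the adjusted p was 0.0335 by edgeR. Library size scaling of the counts gave 0.25 (adjusted p 0.0117, edgeR). TPM rescaled without the mitochondrial genome also gave 0.25 (adjusted p 0.0331, limma). Of 19 alternative settings, 5 gave a call and 14 did not.

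KLF5 and KLF6 rose by small amounts. KLF5, which drives proliferation in basal epithelial cells (ENSG00000102554, chromosome 13, 73054976 to 73077542), had 14.3, 12.9 and 14.6 TPM in frankincense libraries, against 12.1, 9.03 and 10.4 TPM in vehicle libraries. Its log2 fold change was 0.19 ± 0.0731 (SE; adjusted p 0.0361, edgeR), and leaving out any single vehicle library or treated replicate 1 ended the call, at adjusted p 0.0505 to 0.191. The call of KLF5 was also lost with DESeq2 (adjusted p 0.0802), upper-quartile scaling (0.0995), a filter of at least 5 CPM (0.064), rescaled TPM (0.13) and the effective length in the model (0.2). KLF6 is a ubiquitous factor of injury responses with reported tumour suppressor activity (ENSG00000067082, chromosome 10, 3775996 to 3785281). Its TPM was 9.52, 11.2 and 11.7 in frankincense libraries, against 8.15, 7.33 and 8.99 in vehicle libraries, with the groups apart. The log2 fold change of KLF6 was 0.23 ± 0.0680 (SE; adjusted p 0.00767, edgeR), and it became 0.15 (adjusted p 0.183) with the effective length in the model and 0.20 (adjusted p 0.131, limma) on rescaled TPM.

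KLF7, a factor of neuronal and adipocyte development, was called lower by counts but not on any scale that corrects for length. The gene (ENSG00000118263, chromosome 2, 207074137 to 207167267) had 49.8, 49.2 and 47.4 normalised CPM in frankincense libraries, against 59.6, 57.1 and 60.8 in vehicle libraries. Its log2 fold change was -0.28 ± 0.0543 (SE; adjusted p 0.000443, edgeR). In TPM the order was turned round, with 11.6, 10.6 and 12.6 in treated and 9.79, 9.42 and 10.2 in vehicle libraries, also apart. The effective length of KLF7 was 5841, 6375 and 5603 bases in frankincense libraries, against 7284, 7071 and 7179 bases in vehicle libraries. That is a mean of 5940 ± 395 against 7178 ± 107 bases (SD, n = 3 each), 17.2% shorter, with an exact two-sided permutation p of 0.1, the smallest that 3 against 3 can give. Effective length is the authors' mean over transcripts weighted by their abundance, and GENCODE 29 lists 10 KLF7 transcripts, among them protein-coding ones of 8362, 7954, 3037 and 1788 bases. With that length in the count model the log2 fold change was -0.013 (adjusted p 0.884, edgeR). KLF7 was the only member whose effective length had groups apart and means at least 5% different, a pattern that 11.6% of all tested genes showed, 7.66% with a shorter and 3.98% with a longer length after treatment.

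**Figure D2:**
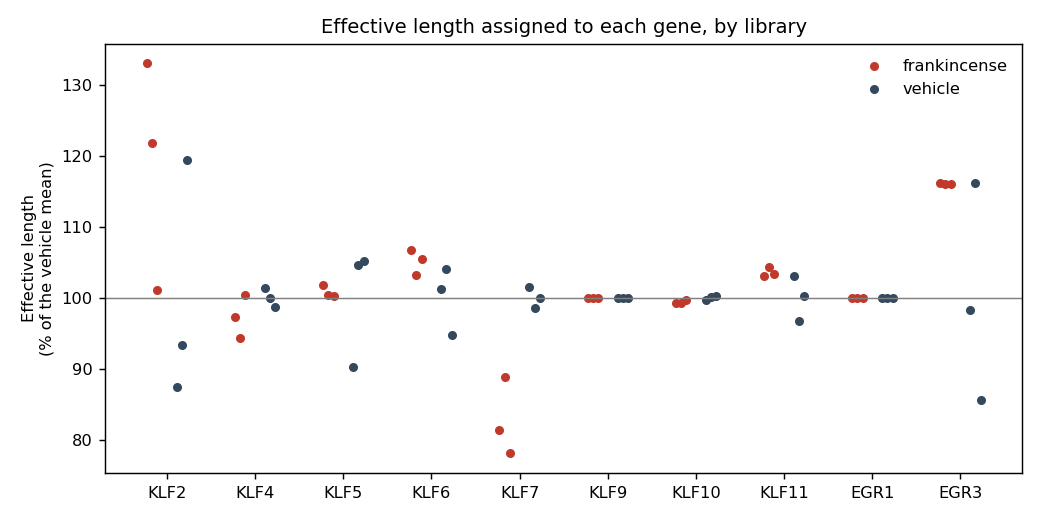
Effective length of each member in each library as a percentage of its vehicle mean; points are libraries, frankincense left of vehicle. KLF7 is shorter in all 3 treated libraries, KLF2 varies widely within both groups, and KLF9 and EGR1, with 1 annotated transcript each, stay close to the vehicle mean.

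KLF9, also called basic transcription element binding protein, is induced by glucocorticoid and thyroid hormone. KLF9 (ENSG00000119138, chromosome 9, 70384597 to 70414624) had 19.97, 20.2 and 19.7 normalised CPM in frankincense libraries, against 22.2, 22.3 and 25.3 in vehicle libraries. Vehicle replicate 3 was the highest library. The log2 fold change was -0.22 ± 0.0729 (SE; adjusted p 0.0172, edgeR), and without vehicle replicate 3 it was -0.15 with an adjusted p of 0.0919. Library size scaling gave -0.14 (adjusted p 0.103, edgeR) and rescaled TPM -0.14 (adjusted p 0.265, limma), also without a call. In TPM the groups overlapped, with 5.42, 5.55 and 5.90 in treated and 5.30, 5.19 and 6.09 in vehicle libraries.

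KLF10 and KLF11, the paralogs known as TGF-beta inducible early genes, moved in opposite directions on the count scale. KLF11, a repressor that recruits SIN3 and histone deacetylases (ENSG00000172059, chromosome 2, 10042849 to 10054836), had 8.87, 9.18 and 10.8 TPM in frankincense libraries, against 4.49, 4.74 and 4.58 TPM in vehicle libraries. Every treated library was far above every vehicle library. The log2 fold change was 0.87 ± 0.0719 (SE), a 1.83-fold rise with an adjusted p of 9.16e-08 (edgeR). An antisense gene, ENSG00000271787, overlaps KLF11 and had a mean of 103 counts in treated and 72.95 in vehicle libraries, beside 606 to 658 counts for KLF11 in treated and 309 to 381 in vehicle libraries. Strand use is not given in the sources used here, so reads of the pair cannot be separated.

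KLF10 (ENSG00000155090, chromosome 8, 102648779 to 102655902) had 34.9, 36.7 and 42.4 normalised CPM in frankincense libraries, against 46.3, 48.1 and 50.5 in vehicle libraries. The groups were apart, with treated replicate 3 nearest to the vehicle libraries. Its log2 fold change was -0.35 ± 0.0722 (SE; adjusted p 0.000735, edgeR). On the TPM scale the values were 17.3, 18.3 and 23.0 in treated and 20.1, 20.3 and 22.0 in vehicle libraries, which overlapped, and limma on log2(TPM + 1) gave -0.09 with an adjusted p of 0.471. The call remained on rescaled TPM, at -0.27 (adjusted p 0.0494, limma), and with the effective length in the count model, at -0.35 (adjusted p 0.00324, edgeR).

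Ordered by TPM, EGR1 and KLF10 led the members in treated cells, at 21.3 ± 2.28 and 19.5 ± 3.02 TPM (SD, n = 3 each), and their libraries overlapped. A middle set followed, KLF5, KLF4, KLF7, KLF6 and KLF11, at mean levels of 13.9 to 9.61 TPM, in which each neighbour overlapped the next. KLF9 at 5.62 ± 0.248 TPM, KLF2 at 4.003 ± 0.291 TPM and EGR3 at 0.0367 ± 0.0208 TPM (SD, n = 3 each) stood below without overlap. Among vehicle libraries EGR1 was alone at the top, at 41.3 ± 4.70 TPM, and KLF10 was alone below it, at 20.8 ± 1.05 TPM (SD, n = 3 each). KLF5, KLF7 and KLF4 then overlapped, at 10.5 to 9.42 TPM, KLF6 stood below them at 8.16 TPM, and KLF2 and KLF9 overlapped each other, at 5.89 and 5.53 TPM. KLF11 was thus 7th of 10 in treated cells, and in vehicle cells it was 9th, above EGR3 alone.

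The summed deposited TPM of the 10 members was 103, 105 and 121 in frankincense libraries, against 122, 114 and 112 in vehicle libraries, so the groups overlapped (exact two-sided permutation p of 0.3). On TPM rescaled without the mitochondrial genome, the summed level of every treated library was below that of every vehicle library. On the deposited TPM the 8 KLF genes alone summed to 82.4, 85.2 and 96.6 in treated and 76.5, 72.0 and 75.5 in vehicle libraries, without overlap (p of 0.1, the smallest this exact permutation test can give). On the rescaled TPM the KLF sums of the groups overlapped. EGR1 made up 19.4% ± 0.632 of the members' summed TPM in treated cells and 35.5% ± 2.69 in vehicle cells (SD, n = 3 each). There were 2.29, 2.14 and 2.21 EGR1 transcripts per KLF11 transcript in treated libraries, against 10.2, 8.85 and 7.93 in vehicle libraries, and this within-library ratio does not depend on the scaling between libraries.

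**Figure D3:**
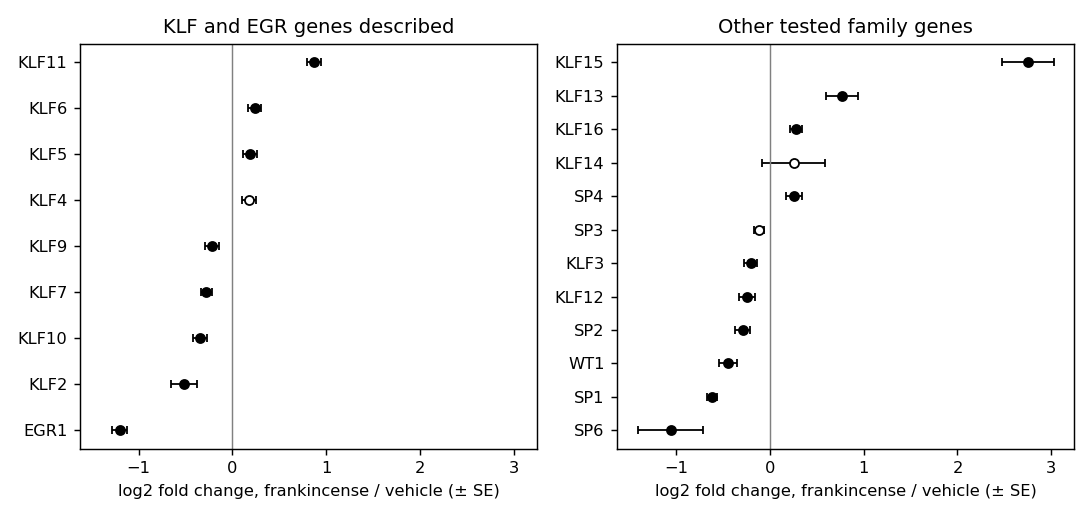
Log2 fold change (frankincense over vehicle, edgeR, bars are the SE) of the 9 tested members on the left and of the other tested KLF, SP and EGR family genes on the right; filled points were called. KLF11 at 0.87 and EGR1 at -1.20 bound the members, and KLF15 at 2.75 lies above all. KLF7 and KLF9 on the left and KLF3, KLF12, SP3 and WT1 on the right, below 0 here, are above 0 by limma on log2(TPM + 1). On TPM rescaled without the mitochondrial genome KLF9 is at -0.14.

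Of the 22 other KLF, SP and EGR family genes, 12 were tested, 4 of which rose and 6 fell, with a median log2 fold change of -0.16. KLF15, a glucocorticoid-induced regulator of amino acid and lipid metabolism, had 2.07, 1.59 and 1.35 TPM in frankincense libraries, against 0.23, 0.18 and 0.22 TPM in vehicle libraries. Its log2 fold change of 2.75 ± 0.273 (SE; adjusted p 6.22e-07, edgeR) was beyond that of every member, at a level below that of the KLF members. SP1, the general activator that binds the same GC boxes as the KLF proteins, had 14.01, 14.1 and 16.8 TPM in treated and 19.9, 19.98 and 20.9 TPM in vehicle libraries. SP1 fell by 0.61 ± 0.0514 on the log2 scale (SE; adjusted p 1.04e-07, edgeR). KLF13 was called higher, at 0.77 ± 0.173 (SE; adjusted p 0.00128, edgeR), but its TPM overlapped, with 4.31, 2.31 and 3.58 in treated and 2.29, 2.97 and 1.64 in vehicle libraries. WT1, an EGR-like factor of the urogenital mesothelium, was called lower at -0.44 ± 0.0954 (SE; adjusted p 0.000934, edgeR), with an effective length that was 25.1% shorter in treated cells. With the effective length in the model KLF13 was at 0.30 (adjusted p 0.381) and WT1 at -0.02 (adjusted p 0.904). By limma on log2(TPM + 1), 3 of the 12 were called higher and 1 lower. On that scale 7389 of all 16719 tested genes were called higher and 2491 lower. EGR2, EGR4 and 8 others were too low to be tested.

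The genes known to act on EGR1 transcription were split, with 5 of 15 higher, 6 lower and a median log2 fold change of -0.0063. RPS6KA1, the ERK-activated kinase RSK1, fell by 0.55 ± 0.0544 and ELK3, an ETS-domain partner of serum response factor, fell by 0.58 ± 0.0589 on the log2 scale (SE; adjusted p 6.49e-07 and 7.51e-07, edgeR). MRTFB, a coactivator of serum response factor, averaged 8.0 TPM in treated and 9.74 TPM in vehicle cells and fell by 0.62. BRAF, a kinase upstream of ERK, rose by 0.49, with 18.6 TPM in treated and 8.15 TPM in vehicle cells on average. SRF, the gene of serum response factor, was named after its value was seen. It rose by 0.33 (adjusted p 0.000432, edgeR), with 14.1 TPM in treated and 9.51 TPM in vehicle cells on average. By limma on log2(TPM + 1), 8 of this list were higher and 2 lower, beside 7389 and 2491 of all 16719 tested genes.

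Among 20 other immediate early genes 6 rose and 12 fell, with a median log2 fold change of -0.24. ATF3, a stress-induced bZIP factor, was the clearest riser, at 29.9 TPM in treated and 4.56 TPM in vehicle cells and a log2 fold change of 2.49 ± 0.0914 (SE; adjusted p 2.1e-11, edgeR). CCN1, a matricellular protein, averaged 1011 TPM in treated and 322 TPM in vehicle cells, while CCN2, its relative, averaged 35.2 and 58.7 TPM. DUSP6, the phosphatase that switches ERK off, fell by 0.80 ± 0.0639 on the log2 scale (SE; adjusted p 6.64e-08, edgeR). FOS and JUNB, named after their values were seen, averaged 68.8 and 39.97 TPM in treated cells, against 158 and 121 TPM in vehicle cells, and fell by 1.47 ± 0.177 and 1.84 ± 0.0982 on the log2 scale (SE; adjusted p 0.000961 and 1.53e-07, edgeR). Thus EGR1, FOS and JUNB were lower while ATF3 and CCN1, from the same class of genes, were higher.

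Of 15 corepressors, acetyltransferases and degradation factors that act on KLF and EGR proteins, 4 rose and 8 fell. The median log2 fold change of this mixed list was -0.21. HDAC1, the deacetylase of the SIN3 complex, averaged 80.2 ± 6.32 TPM in treated cells and 135 ± 4.37 TPM in vehicle cells (SD, n = 3 each). Its log2 fold change was -1.04 ± 0.0492 (SE; adjusted p 2.79e-10, edgeR). NAB1, an EGR corepressor, averaged 25.7 TPM in treated and 37.5 TPM in vehicle cells and fell by 0.75 on the log2 scale. KAT2B, an acetyltransferase, and HDAC2 fell by 0.83 and 0.44. By limma on log2(TPM + 1), 6 of the list were higher and 5 lower, beside 7389 and 2491 of all 16719 tested genes.

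Upstream of KLF10 and KLF11, 2 of 11 TGF-beta signal genes rose and 6 fell, with a median log2 fold change of -0.34. SMAD3, which carries the receptor signal to the nucleus, averaged 20.6 ± 1.59 TPM in treated and 59.5 ± 1.72 TPM in vehicle cells (SD, n = 3 each), a log2 fold change of -1.96 ± 0.0551 (SE; adjusted p 1.82e-12, edgeR). The ligand genes TGFB1 and TGFB3 fell by 0.76 and 1.86. By limma on log2(TPM + 1), 4 were higher and 5 lower, beside 7389 and 2491 of all 16719 tested genes.

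Genes known to act on KLF2 and KLF4 transcription gave 4 higher and 4 lower of 10, with a median log2 fold change of -0.13. The list held the ERK5 cascade and its MEF2 factors, and also CCM2, KRIT1 and PDCD10, named here to complete its description. It was not divided into genes that raise and genes that lower KLF2 and KLF4, so its counts and median give no direction of input. CCM2 and KRIT1 were among those called lower, with log2 fold changes of -0.41 and -0.21, and PDCD10 was not called. MEF2A averaged 24.1 TPM in treated and 13.97 TPM in vehicle cells and rose by 0.54 ± 0.0600 (SE; adjusted p 2.18e-06, edgeR), and MEF2D rose by 0.36. The kinase gene MAP3K3 fell by 0.47 and MAPK7, which encodes ERK5, fell by 0.38 on the count scale. By limma on log2(TPM + 1), 4 were higher and 0 lower, beside 7389 and 2491 of all 16719 tested genes.

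Reported EGR1 targets were split evenly, with 6 of 15 higher, 6 lower and a median log2 fold change of 0.06. GDF15, a stress-induced cytokine, averaged 405 TPM in treated and 39.6 TPM in vehicle cells, and GADD45A, a growth arrest gene, averaged 503 and 47.8 TPM. F3, tissue factor, averaged 79.4 TPM in treated and 26.8 TPM in vehicle cells. TGFB1, in this list too, fell. By limma on log2(TPM + 1), 9 were higher and 4 lower, beside 7389 and 2491 of all 16719 tested genes.

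Reported KLF targets comprised 13 genes, 9 of them tested, of which 5 rose and 2 fell, with a median log2 fold change of 0.52. THBD, the thrombomodulin gene that KLF2 is known to activate in endothelium, averaged 2.96 TPM in treated and 0.307 TPM in vehicle cells, a log2 fold change of 3.0 ± 0.171 (SE; adjusted p 1.88e-09, edgeR). ENG, endoglin, averaged 25.7 TPM in treated and 60.2 TPM in vehicle cells, a log2 fold change of -1.58 ± 0.0487 (SE; adjusted p 4.01e-12, edgeR). CDKN1A, the p21 cell cycle inhibitor, averaged 272 TPM in treated and 129 TPM in vehicle cells and rose by 0.82. Binding of KLF or EGR proteins to these genes was not measured.

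**Figure D4:**
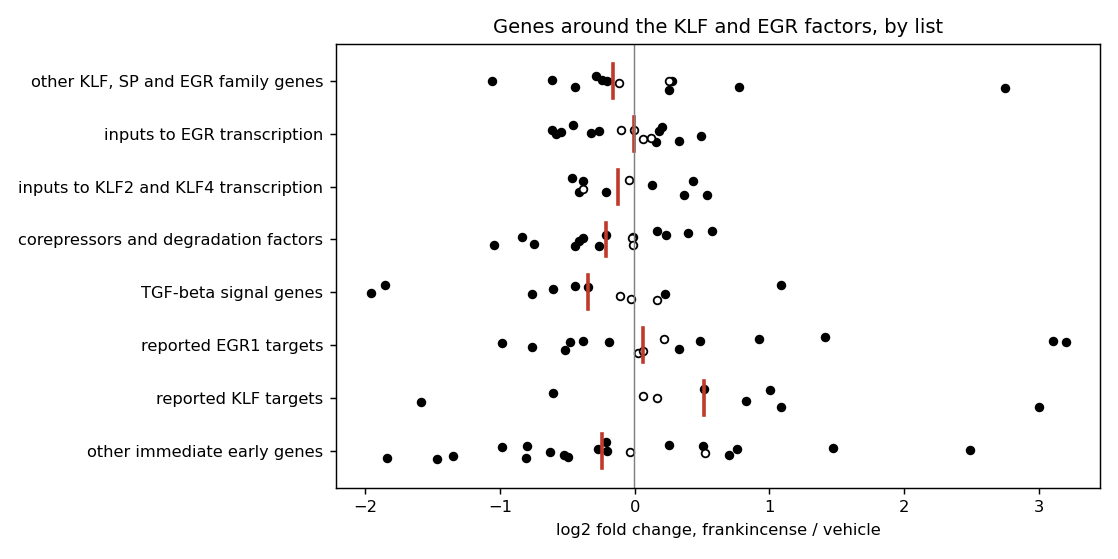
Log2 fold change (frankincense over vehicle, edgeR) of each tested gene in the 8 lists, filled where called and open where not; a red bar is the median of a list and the grey line the median of all tested genes. Medians lie between -0.34 for the TGF-beta signal genes and 0.52 for the reported KLF targets, with genes on both sides of 0 in every list.

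Among the genes whose 6 library values were closest to those of KLF11, by Euclidean distance of centred log2 CPM over 11843 genes, were LRP8, a lipoprotein receptor (distance 0.0506), and SARS1, the cytosolic seryl-tRNA synthetase (0.0629). Their log2 fold changes were 0.90 and 0.83. Closest to EGR1 were the RNA APPAT (0.184), C1GALT1C1, a chaperone of O-glycosylation (0.185), and BST2, the interferon-induced tetherin (0.191), with log2 fold changes of -1.23, -1.18 and -1.14. The measure uses the 2 groups themselves, so it mostly ranks genes by a fold change of like size.

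**Figure D5:**
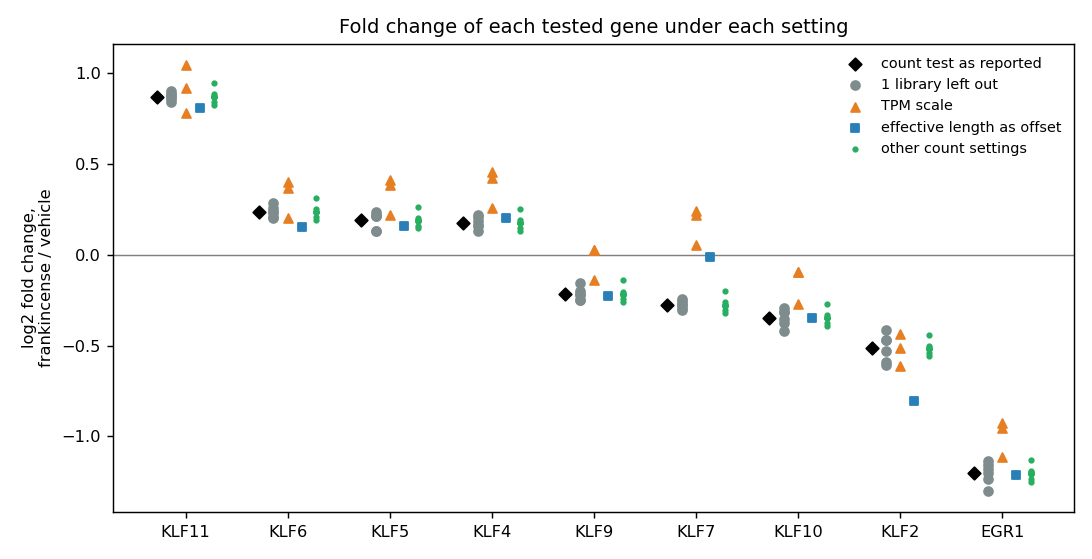
Log2 fold change (frankincense over vehicle) of each tested member under the reported setting and 19 alternatives; each point is a setting, marked by kind. EGR1 and KLF2 stay below 0 and KLF11 above 0 throughout, while KLF7 and KLF9 lie on both sides of 0.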

How the data were processed

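RNA from 3 frankincense and 3 vehicle libraries (1.5 ug total RNA, TruSeq kit, per the labels' protocols) was analysed from the deposited gene tables. The submitters' processing notes name STAR, RSEM 1.3.1 and GRCh38. No source used here gives the annotation or strand setting. The deposited expected counts are estimated reads for each gene, per the file headers, the deposited TPM and FPKM values are scaled for gene length and depth, and the deposited effective length, used here as a signal of which transcripts were counted, is a mean over transcripts weighted by abundance. Members were ordered by TPM, and FPKM entered no test reported here.

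Rounded expected counts entered edgeR 4.0.16 under R 4.3.3 (filterByExpr, TMM, glmQLFit with robust and legacy settings, glmQLFTest on group, two-sided, Benjamini-Hochberg adjustment over all 16719 genes kept, called under 0.05). The SE is the absolute log2 fold change divided by the square root of F. Single values were compared by exact two-sided permutation of libraries. Libraries differed by more than sampling noise (chi-square per degree of freedom of at least 3.86), so each counted as 1 sample. Same-numbered libraries deviated together weakly (correlations 0.0500, 0.101 and 0.0352), so the numbers were not taken as pairs.

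Alternatives were other scalings and filters, DESeq2 1.42.0, limma 3.58.1 (voom, or on log2 of TPM plus a pseudocount of 1 or 0.1), effective length as offset, a replicate block and leaving out each library. The members and gene lists were chosen with earlier results of these data known. Named are all members, all tested KLF, SP and EGR genes where useful, the 4 called genes with the smallest adjusted p in each list, and the 3 genes closest to the member with the largest rise and the largest fall. A few genes selected in this way are not reported here. Symbols came from a gene name table (60419 of 60616 identifiers), coordinates from GENCODE 29, and promoter sequences from RefSeq (GRCh38.p14).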

Additional observations from a re-analysis of the deposited data

How the results depend on the processing

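EGR1, KLF11 and KLF2 kept their direction and call under all 19 alternatives, with log2 fold changes of -1.30 to -0.92, 0.78 to 1.04 and -0.80 to -0.42. On log2(TPM + 1), log2(TPM + 0.1) and TPM rescaled without the mitochondrial genome, KLF7 reversed to 0.22, 0.24 and 0.051, without a call, and WT1 to 0.20, 0.22 and 0.037; on the first and second of these scales KLF9 reversed to 0.023 and 0.027, KLF3 to 0.15 and 0.16, SP3 to 0.15 and 0.15, and KLF12 to 0.0018 and 0.0015. Members called lower then numbered 2, 2 and 3, and members called higher numbered 1 with effective length as offset. On the first and second TPM scales, 2491 and 2490 genes were lower in all. So were 2 and 2 inputs to EGR transcription, 0 and 0 inputs to KLF2 and KLF4, and 5 and 5 corepressors, acetyltransferases and degradation factors. Higher were 7389 and 7392 genes in all, 8 and 8 inputs to EGR transcription and 4 and 4 TGF-beta signal genes. Other family genes called lower numbered 1, 1 and 1 on the 3 TPM scales and 3 with the offset, and those called higher 2 with at least 5 CPM. Inputs to EGR transcription called higher numbered 3 under upper-quartile scaling. Leaving out each library gave 4740 to 5690 genes higher and 4637 to 5341 lower in all, 2 to 3 members higher and 4 to 5 lower, 3 to 7 other family genes lower (3 without frankincense replicate 2), and 3 to 6 inputs to EGR transcription higher (3 without vehicle replicate 2). With a replicate block 10591 genes were called in all, and the members gave the same 3 higher and 5 lower; each library correlated best with its own number, a hint from the data and not the design. Calls numbered 8633 to 11031 over the alternatives. Depth limits EGR3, which was tested only with no filter (adjusted p 0.0122, edgeR) or without frankincense replicate 2 or 3 (0.0266 and 0.00576). In the last 2 fits it passed the filter only through the vehicle libraries, so they add no support. The cause of these differences was not tested.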
